A study of Homo sapiens with 2 samples.

Results

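Among A375 melanoma cells that had outlived attack by cytotoxic T lymphocytes (CTLs), a minority carried RNA of LCE1E, a gene whose protein is otherwise known from the outermost layer of the skin. A cell was counted as an LCE1E cell when its barcode had at least 5000 UMIs (unique molecular identifiers, each standing for 1 captured RNA molecule), at most 20% mitochondrially encoded UMIs, fewer than 3 of 6 T cell markers (CD2, CD3D, CD3E, CD52, PTPRC and TRAC) and 2 or more LCE1E UMIs. This gave 481 LCE1E cells out of 7144 persister barcodes and out of 17895 barcodes in the series. The 5129 persister cells that met the same limits with 0 LCE1E UMIs served as the comparison, and the 287 cells with exactly 1 LCE1E UMI were kept apart.

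The series compared 2 single-cell RNA libraries of A375, a human melanoma line. The parental library came from untreated cells. The persister library came from cells left alive after 15 days together with CTLs directed at the cancer-testis antigen NY-ESO-1, with 7.5 ng/mL recombinant interleukin 2 in the medium and fresh CTLs every 3 days. Whether interleukin 2 was also given to the untreated cells is not stated. Each condition had 1 library, and the LCE1E cells and their comparison cells all came from the 1 persister library, so no difference below has a replicate check and no test was run. Values are given by size, with 95% intervals (exact Poisson for sums of UMIs, Clopper-Pearson for shares of cells) that cover counting error only.

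The late cornified envelope (LCE) genes lie together in the epidermal differentiation complex on chromosome 1, beside genes for loricrin, the small proline-rich proteins and many S100 proteins. In skin they are switched on at the end of keratinocyte differentiation, and transglutaminases cross-link their products into the cornified envelope that takes the place of the plasma membrane in dead surface cells. Melanoma cells derive from melanocytes, a lineage of the neural crest that does not cornify.

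LCE1E (ENSG00000186226) lies at chr1:152786214-152788426 on the plus strand of GRCh38 in GENCODE 29, between LCE1F and LCE1D. The promoters of these 3 genes are shown because LCE1D and LCE1F RNA was also higher in the LCE1E cells. Each window is 300 bases long and covers the RefSeq start and mainly the sequence before it (GRCh38.p14, plus strand), and capitals mark runs of 18 or 21 bases that all 3 windows share. The windows are chr1:152786007-152786306 for LCE1E, chr1:152796471-152796770 for LCE1D and chr1:152774890-152775189 for LCE1F.
LCE1E: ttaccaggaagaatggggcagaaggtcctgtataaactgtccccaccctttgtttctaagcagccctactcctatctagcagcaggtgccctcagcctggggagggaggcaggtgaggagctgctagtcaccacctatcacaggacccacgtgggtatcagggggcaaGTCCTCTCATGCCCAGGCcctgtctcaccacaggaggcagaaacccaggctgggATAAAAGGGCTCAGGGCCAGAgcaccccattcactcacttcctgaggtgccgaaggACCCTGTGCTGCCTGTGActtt
LCE1D: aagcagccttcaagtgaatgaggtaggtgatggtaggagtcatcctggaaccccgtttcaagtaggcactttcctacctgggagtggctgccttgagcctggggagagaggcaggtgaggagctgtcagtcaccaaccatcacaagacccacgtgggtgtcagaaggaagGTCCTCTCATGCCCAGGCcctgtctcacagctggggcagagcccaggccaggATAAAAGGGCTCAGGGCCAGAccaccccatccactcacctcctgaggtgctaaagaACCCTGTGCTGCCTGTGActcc
LCE1F: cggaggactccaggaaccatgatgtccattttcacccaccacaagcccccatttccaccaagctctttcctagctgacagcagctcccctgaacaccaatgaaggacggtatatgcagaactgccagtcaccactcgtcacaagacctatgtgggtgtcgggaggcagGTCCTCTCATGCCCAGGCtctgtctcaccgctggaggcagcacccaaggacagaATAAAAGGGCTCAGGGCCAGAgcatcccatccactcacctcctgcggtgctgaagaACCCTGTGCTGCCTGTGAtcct
The aligned LCE1D window was 75.8% identical to that of LCE1E, and the LCE1F window was 70.6% identical. The first and the last capital run occurred in 4 of 35116 RefSeq promoter windows of this length, those of LCE1C, LCE1D, LCE1E and LCE1F, and the middle run in 3. The letters CACGTG, searched on both strands and chosen after the sequences were seen, occurred in the LCE1E and LCE1D windows but not in the LCE1F window, and in 7.26% of all windows. TATAAA occurred in the LCE1E window alone among the 3, and in 11.5% of all windows. These matches describe the letters only.

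LCE1E RNA was close to absent before CTL exposure. Among 9094 parental cells under the same limits, 1 had a single LCE1E UMI (0.0110%), and 0 had 2 or more (interval 0 to 0.0406%). Among 5897 persister cells under these limits, 481 had 2 or more, or 8.16% (interval 7.47 to 8.88%), and 768 had at least 1. Persister barcodes with 3 or more T cell markers, which should lack the gene, held an LCE1E UMI in 4 of 176 cases (2.27%, interval 0.623 to 5.72%) and 2 or more in 1 case (0.568%). Their median depth of 3305.5 UMIs was lower than the 11940 UMIs of the persister cells, so the shares are not at equal depth. With each persister cell thinned to 5000 UMIs, 332 cells had 2 or more LCE1E UMIs, or 5.63%. Of 482 barcodes that met the UMI limit with 2 or more LCE1E UMIs, the mitochondrial limit removed 0 and the T cell limit removed 1.

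The LCE1E UMIs were spread unevenly. An LCE1E cell had a median of 6 (quartiles 3 and 16), and the highest cell had 186. The 195 cells with 2 to 4 UMIs had 204 LCE1E UMIs per 1000000 UMIs (CPM), the 191 cells with 5 to 19 had 719.9 CPM and the 95 cells with 20 or more had 2688 CPM. That last class held 61.2% of all LCE1E UMIs of the library, and the 481 cells together held 94.1%. Just inside the limit stood 91 cells with exactly 2 UMIs (159.9 CPM), and just outside it 287 cells with 1 UMI (73.0 CPM). PTPRZ1 was at 246 CPM in the former and 123 CPM in the latter, and TIMP1 at 19543 and 12421.5 CPM. In cells with 0 LCE1E UMIs these genes were at 44.2 and 6219 CPM, below the level at 1 UMI. These levels are a description, since LCE1E UMIs chose the cells.

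**Figure D1:**
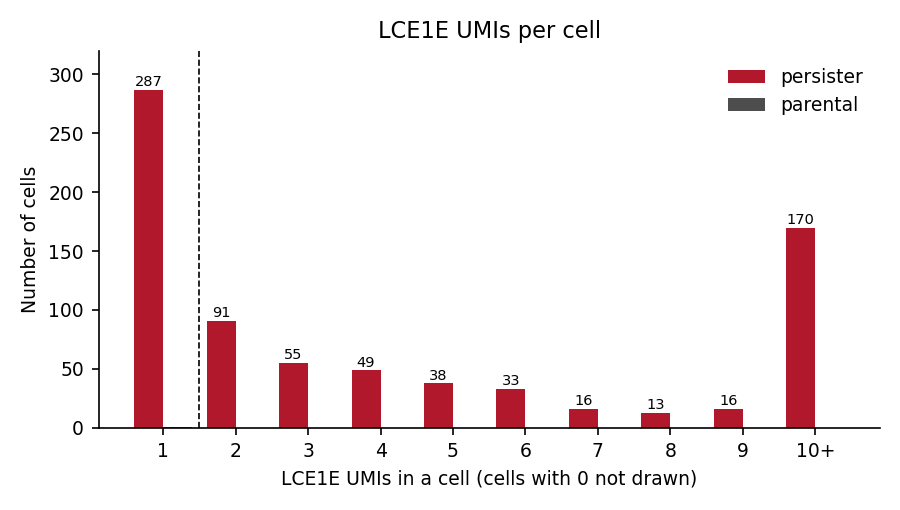
Number of cells passing the limits (vertical axis) by LCE1E UMIs in the cell (horizontal axis; cells with 0 are not drawn), persister in red and parental in grey, with the dashed line at the limit of 2 UMIs. Persister bars run from 287 cells at 1 UMI and 91 at 2 UMIs down to 13 at 8 UMIs, with 170 at 10 or more, and the 1 parental cell is too few to see at this scale.

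The libraries held 88214007 parental and 80802724 persister UMIs. LCE1E cells had a median of 12100 UMIs, 3184 genes and 8.26% mitochondrial UMIs, against 11910 UMIs, 3303 genes and 7.65% in the 0-UMI cells. More than 30000 UMIs were found in 19 LCE1E cells (3.95%) and in 60 of the 0-UMI cells (1.17%). Of 38 barcode sequences that occurred in both libraries, 4 were LCE1E cells. Values without either kind of cell are among the alternatives in the closing section.

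The LCE1E cells carried melanoma RNA. Of 24 melanoma markers 20 had UMIs in them, with a summed level of 4585 CPM against 4933 CPM in the 0-UMI cells and 5234 CPM in parental cells. VIM alone gave 1822 CPM of the sum in LCE1E cells. The pigment genes PMEL, MLANA, TYR and DCT were at 0. SOX10, a transcription factor of the neural crest and melanocytes, stood at 184 CPM against 179 CPM in the 0-UMI cells. Of 16 keratinocyte markers 8 were at 0, among them KRT5, KRT1, TP63 and DSG1. The summed keratinocyte level was 749 CPM against 906 CPM, and KRT10 alone gave 675 CPM of it in LCE1E cells, 806 CPM in the 0-UMI cells and 523 CPM in parental cells. Summed T cell markers were at 17.9 CPM in LCE1E cells and 17.1 CPM in the 0-UMI cells, with CD3E, TRBC1, CD8A, CD8B and LCK at 0. TRBC2, a T cell receptor beta constant gene, was at 12.6 CPM in LCE1E cells and 2.45 CPM in the 0-UMI cells, while TRAC, the alpha constant gene that the cell limits used, was at 0.880 and 5.02 CPM. Summed cytotoxic effector genes were at 3.52 and 5.37 CPM, B cell markers at 0.293 and 0.135 CPM, myeloid markers at 19.5 and 15.6 CPM (of which FCER1G gave 17.3 CPM in LCE1E cells) and fibroblast markers at 3.23 and 2.83 CPM.

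Across the transcriptome, more genes were lower than higher in the LCE1E cells. Summed UMIs came to 6816859 in the LCE1E cells and 66896225 in the 0-UMI cells, so 3 UMIs, taken as the floor, were worth 0.440 and 0.0448 CPM. Of 5526 genes with at least 20 CPM in either group, leaving out LCE1E, 242 (4.38%) stood 1.5-fold or more above the 0-UMI cells and 588 (10.6%) 1.5-fold or more below them; these are called higher and lower in what follows. The median log2 fold was -0.15. With the 0-UMI cells weighted to the same distribution of cell cycle UMIs, 197 genes were higher and 321 lower. Log2 folds were taken after adding 1 CPM, so they are too small for low genes, and plain folds are ratios of CPM.

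RNA of LCE1D, LCE1F and KPRP, genes close to LCE1E in position, was higher in the LCE1E cells but was seen in a minority of them. LCE1D was at 29.3 CPM (200 UMIs) in LCE1E cells, 0.120 CPM (8 UMIs) in the 0-UMI cells and 0 in parental cells, a 245-fold difference (interval 122 to 576). It was seen in 123 LCE1E cells (25.6%) and in 0.156% of the 0-UMI cells. LCE1F was at 9.54 CPM (65 UMIs) against 0.239 CPM (16 UMIs), and KPRP, a keratinocyte proline-rich protein, at 10.4 CPM (71 UMIs) against 0.359 CPM (24 UMIs). The groups thus differed by 39.9-fold for LCE1F (interval 22.8 to 73.8) and 29.03-fold for KPRP (18.1 to 48.2). The other members of the family stayed under 1 CPM. LCE1C had 3 UMIs in LCE1E cells and 1 in the 0-UMI cells, LCE5A 1 and 0, and LCE2A 0 and 2, and 13 of 19 genes on the late cornified envelope list (KPRP included) had no UMI in LCE1E cells.

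LCE1E UMIs define the classes and are the denominator of the ratios that follow, so the ratios are shaped by the choice of cells and are given as a description. For each 100 LCE1E UMIs there were 3.50 LCE1D UMIs (interval 2.11 to 5.46) in cells with 2 to 4 LCE1E UMIs, 2.48 (1.81 to 3.32) in cells with 5 to 19 and 3.1 (2.60 to 3.67) in cells with 20 or more. KPRP UMIs for each 100 LCE1E UMIs were 4.05 (2.54 to 6.13), 1.27 (0.803 to 1.90) and 0.593 (0.387 to 0.868) over the same classes, and LCE1F UMIs 1.84, 1.27 and 0.729, where the intervals of the outer classes overlapped. LCE1 genes are close copies, and the sources used here do not give how the counting treated reads that fit several of them. The longest LCE1E transcript, of 1180 bases, shared 0 of 1091 windows of 90 bases with any other LCE gene, and its longest identical run with LCE1D was 78 bases. Reads shorter than that run could fit both genes, so the LCE1D values are uncertain to that extent.

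Other envelope genes of the same complex were raised to very unequal extents. SPRR2D, a small proline-rich envelope protein, was at 1014 CPM in LCE1E cells, 403 CPM in the 0-UMI cells and 5.07 CPM in parental cells, a 2.51-fold difference within the persister library (interval 2.45 to 2.58). PRR9, a proline-rich protein of the same complex, was at 38.7 and 3.57 CPM, but 10 cells held 69.7% of its UMIs in the LCE1E group and only 45 LCE1E cells had any. LOR, which encodes loricrin, was at 6.75 and 0.508 CPM, with 80.4% of its UMIs in 10 cells. PRR9 and LOR thus rested on a few cells, whereas SPRR2D was seen in 79.4% of LCE1E cells and 73.99% of the 0-UMI cells. The SPRR2 genes are close copies of one another, so the SPRR2D counts are uncertain in the same way. Of 25 SPRR and precursor genes, 14 had no UMI in LCE1E cells.

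**Figure D2:**
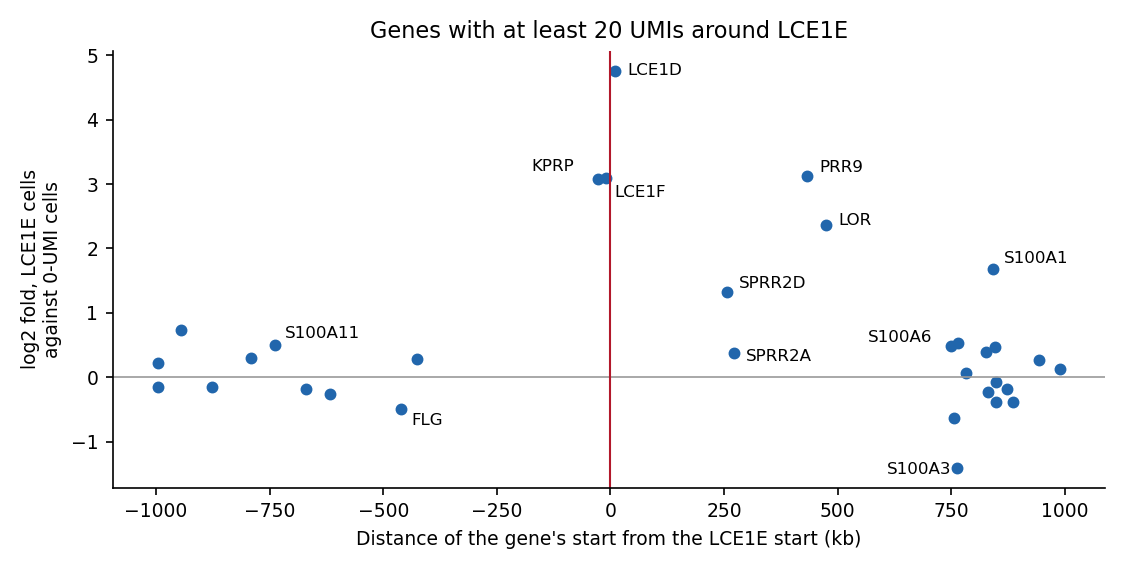
Log2 fold between LCE1E cells and 0-UMI cells (vertical axis) of genes with at least 20 UMIs in both groups together, against the distance of the gene from LCE1E in kb (horizontal axis; LCE1E itself at the red line is not plotted). LCE1D, LCE1F and KPRP stand within 27 kb of LCE1E with log2 folds over 3, while S100 genes on either side lie near 0.5 or below except S100A1 at 1.68.

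Most neighbours of LCE1E were silent. Within 500 kb of LCE1E lay 41 genes, of which 25 had no UMI in either persister group and 3 reached 20 CPM in at least 1 of them. KPRP started 26.7 kb and LCE1F 9.84 kb before LCE1E, LCE1D 10.5 kb after it, and SPRR2D, PRR9 and LOR 255.7, 431.4 and 473.5 kb after it. FLG, the filaggrin gene of the same complex, was at 0.440 CPM (3 UMIs) in LCE1E cells, 1.02 CPM in the 0-UMI cells and 28.2 CPM in parental cells. Chromosome 1 as a whole had a median log2 fold of -0.14 over 611 genes, within the range of the chromosomes (-0.22 on chromosome 13 to -0.07 on chromosome 19).

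The S100 genes of the complex, which encode small calcium-binding proteins, differed by less than 1.5-fold with few exceptions. Of 8 members at 20 CPM or more, 1 was higher, against 4.38% of all genes, and 0 were lower; their median log2 fold was 0.47 against -0.15 over all genes. The higher gene was S100A1, at 214 CPM in LCE1E cells, 66.0 CPM in the 0-UMI cells and 51.2 CPM in parental cells. S100A6 was at 22908, 16392 and 7463 CPM. S100A3, under the limit of 20 CPM, went the other way, at 6.31 CPM in LCE1E cells and 18.4 CPM in the 0-UMI cells, and S100A5 was at 1.32 CPM (9 UMIs) and 2.60 CPM. The summed S100 level was 36819 CPM in LCE1E cells, 26782 CPM in the 0-UMI cells and 13128 CPM in parental cells. It was higher in each successive class of LCE1E UMIs, from 31317 CPM at 1 UMI to 40026 CPM at 20 or more.

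No measured keratin was called higher, unlike some envelope genes, and few regulators of epidermal differentiation were measured. Of 8 measured keratins, 0 were higher and 4 lower, against 10.6% lower among all genes, with a median log2 fold of -0.70. KRT81, a hair keratin, was at 24.2 CPM in LCE1E cells and 163 CPM in the 0-UMI cells, KRT80 at 4.55 and 39.0 CPM, and KRT14, a basal-layer keratin, at 9.54 and 37.8 CPM. KRT10, the suprabasal keratin, was at 675 and 806 CPM. Of 5 measured epidermal regulators, 0 passed 1.5-fold in either direction, against 4.38% higher and 10.6% lower among all genes. With 5 genes, a count of 0 is near these shares. KLF4, a factor of late epidermal differentiation, was at 8.36 and 10.4 CPM, and TP63, the master factor of stratified epithelia, had 0 UMIs against 1. PRDM1, on the same list and also under 20 CPM, went the other way, at 11.6 and 6.05 CPM (1.91-fold, interval 1.48 to 2.44). Its UMIs were seen in 12.1% of LCE1E cells. TGM2, a transglutaminase found in many tissues, was lower (25.5 against 58.1 CPM), while DSP, the desmosomal plaque protein, was higher (24.1 against 13.8 CPM), as was CSTB, a cysteine protease inhibitor (347 against 204 CPM).

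Outside the epidermal genes, the largest fold at 20 CPM or more was that of CLDN18. CLDN18, a claudin of tight junctions in stomach and lung, was at 33.3 CPM in LCE1E cells and 1.03 CPM in the 0-UMI cells, a 32.3-fold difference (interval 24.6 to 42.9), and was seen in 20.2% against 1.03% of cells. LINC00520, a long noncoding RNA, was at 53.3 and 3.50 CPM. STC1, the secreted glycoprotein stanniocalcin 1, was at 89.9 and 9.52 CPM, with 40.3% of its LCE1E-cell UMIs in 10 cells. CD24, a sialylated surface glycoprotein, was at 25.4 and 3.03 CPM, and MYO16, an unconventional myosin, at 25.2 and 3.02 CPM. Parental levels of these genes were low, for instance 0.0607 CPM for CLDN18, 0.194 CPM for LINC00520 and 1.10 CPM for CD24.

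PTPRZ1 differed both in level and in the share of cells. PTPRZ1, a receptor-type tyrosine phosphatase known from glia and neural progenitors, was at 258 CPM in LCE1E cells, 44.2 CPM in the 0-UMI cells and 2.59 CPM in parental cells, a 5.83-fold difference (interval 5.49 to 6.19). It was seen in 83.4% of LCE1E cells and 23.4% of the 0-UMI cells, or in 62.4% and 14.5% after thinning to 5000 UMIs. TIMP1, a secreted inhibitor of matrix metalloproteinases, was at 21166 CPM in LCE1E cells, against 6219 CPM in the 0-UMI cells and 358 CPM in parental cells. ACPP, the prostatic acid phosphatase, was at 196 and 40.7 CPM and was seen in 70.7% against 21.2% of cells. TFPI2, a secreted inhibitor of serine proteases, was at 2036 and 845 CPM, and SERPINB2, the plasminogen activator inhibitor 2, at 65.9 and 14.4 CPM. TAGLN3, a neuronal relative of transgelin, was at 400 and 135 CPM, APOD, a lipid-binding apolipoprotein, at 63.1 and 13.2 CPM, and CYB5R2, a cytochrome b5 reductase, at 194 and 47.4 CPM. FGFBP2, a secreted protein also known from cytotoxic lymphocytes, was at 27.6 and 5.11 CPM. Whether any of the FGFBP2 RNA came from T cells was not tested.

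The genes lowest in the LCE1E cells included secreted, matrix-associated and actin-linked genes. THBS1, the matrix glycoprotein thrombospondin 1, was at 23.2 CPM in LCE1E cells, 187 CPM in the 0-UMI cells and 365 CPM in parental cells, 8.08-fold lower within the persister library (interval 6.91 to 9.51), and was seen in 14.8% against 50.2% of cells. ESM1, the proteoglycan endocan, was at 3.96 and 37.8 CPM, and CAV1, the coat protein of caveolae, at 4.99, 37.0 and 402 CPM in LCE1E, 0-UMI and parental cells. CYR61, a matrix-associated target of the YAP pathway, was at 8.66 and 61.8 CPM. Of 18 measured actin, YAP and SRF genes, 0 were higher and 8 lower (CYR61, CNN3, AMOTL2, CAV1, VCL, TPM1, CAVIN1 and AXL), against 10.6% lower among all genes. The median log2 fold of the list was -0.41, while its summed level was 3757 CPM in LCE1E cells and 4079 CPM in the 0-UMI cells. NNMT, nicotinamide N-methyltransferase, was at 19.8 and 119 CPM, DKK1, a secreted Wnt inhibitor, at 15.1 and 71.3 CPM, and the transcription factors PPARG and TFAP2C at 6.75 and 31.9 CPM and at 11.1 and 49.3 CPM.

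**Figure D3:**
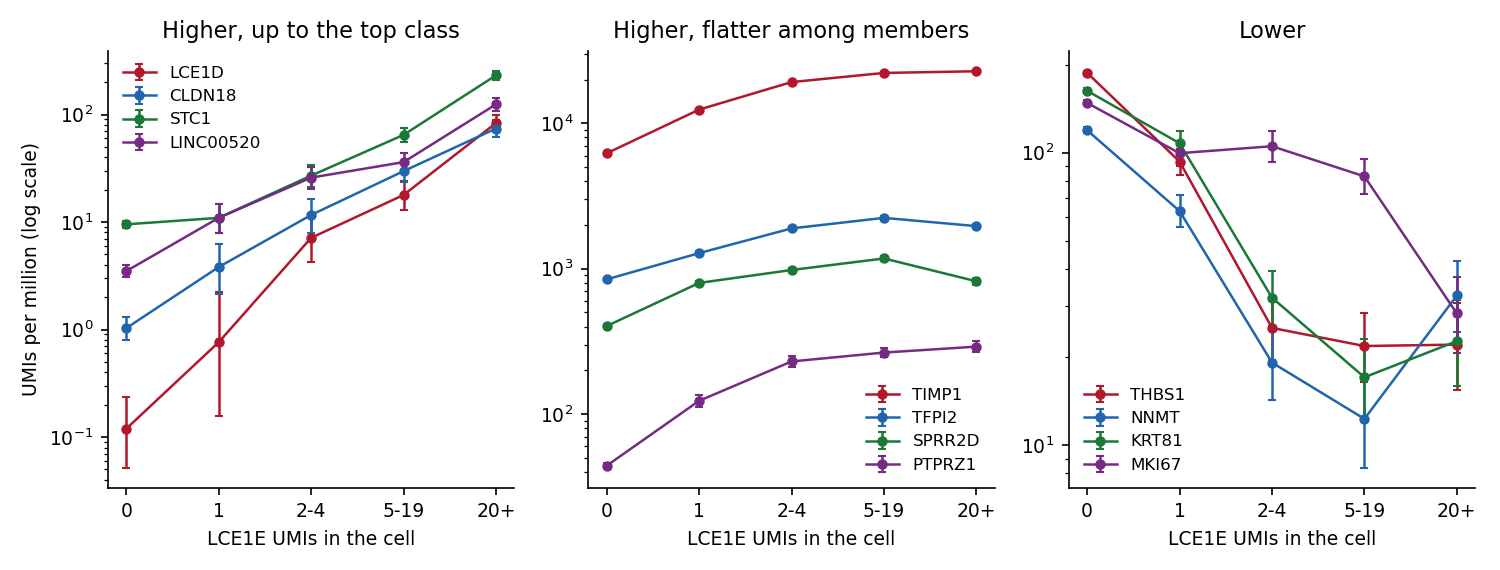
Level in CPM (vertical axes, log scale) of 12 genes in persister cells grouped by LCE1E UMIs (horizontal axes), with 95% Poisson intervals. LCE1D, CLDN18, STC1 and LINC00520 are higher in each successive class, TIMP1, TFPI2, SPRR2D and PTPRZ1 differ mainly between 0 UMIs and 2 to 4 UMIs, and THBS1, NNMT and KRT81 reach low levels by 2 to 4 UMIs while MKI67 is lowest at 20 or more.

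Among the LCE1E cells themselves, the amount of LCE1E RNA went with some of these genes and not with others. Between cells with 20 or more and cells with 2 to 4 LCE1E UMIs, 46 of 2654 genes with at least 50 CPM (1.73%) were higher by 1.5-fold or more and 157 (5.92%) lower. The classes follow raw LCE1E UMIs and were not matched on depth. Their median depth was 11200 UMIs at 2 to 4, 11475 at 5 to 19 and 13942 at 20 or more. STC1 was at 27.0, 64.7 and 232 CPM in the classes of 2 to 4, 5 to 19 and 20 or more UMIs, CLDN18 at 11.6, 29.7 and 74.1 CPM, and LINC00520 at 25.9, 36.1 and 124 CPM. LCE1D was at 7.13, 17.8 and 83.3 CPM, an 11.7-fold difference between the outer classes. PTPRZ1 varied far less, at 230, 265 and 291 CPM, as did TIMP1, at 19200.3, 22192 and 22790.0 CPM. SPRR2D was at 979, 1180 and 819 CPM and was thus lowest in the class richest in LCE1E. THBS1 was equally low throughout, at 25.2, 21.8 and 22.1 CPM, against 93.1 CPM in cells with 1 LCE1E UMI.

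Cell by cell, the genes whose UMIs ranked most like those of LCE1E were TIMP1 (Spearman correlation 0.34), PTPRZ1 (0.33), TMSB10 (0.31), ACPP (0.27), MYL6 (0.26), S100A6, TAGLN3 and TFPI2 (0.24 each) and S100A11 and CYB5R2 (0.23 each). This ranking covered 7263 genes over 5897 persister cells of 1 library, each thinned to 5000 UMIs, and genes under 5% of cells, such as LCE1D, could not enter it. The coefficients are low and describe these cells only. Most of the cells, 5129, had 0 LCE1E UMIs and so were tied, and LCE1E UMIs also define the groups. The ranking is therefore no separate check on the differences between the groups. TMSB10, the actin-binding thymosin beta 10, was at 8011 CPM in LCE1E cells and 4871 CPM in the 0-UMI cells, and MYL6, a myosin light chain, at 1829 and 865 CPM.

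LCE1E cells held less cell cycle RNA. Of 46 measured genes of the G2 and M phases, 0 were higher and 41 lower, and their median log2 fold was -0.97. Of 27 S phase genes 0 were higher and 22 lower (median -0.90), against 10.6% lower among all genes. MKI67, a marker of proliferating cells, was at 78.5 CPM in LCE1E cells, 148 CPM in the 0-UMI cells and 311 CPM in parental cells. In cells thinned to 5000 UMIs, a cell had a median of 7 UMIs of the G2 and M phase list in the LCE1E group, 11 in the 0-UMI cells and 39 in parental cells. Among the LCE1E cells this median was 8, 6 and 5 in the classes of 2 to 4, 5 to 19 and 20 or more LCE1E UMIs, and MKI67 was at 105, 82.9 and 28.2 CPM. Other differences were measured again with the 0-UMI cells weighted to equal cell cycle UMIs. The log2 folds of THBS1, PTPRZ1, TIMP1 and LCE1D were then -2.86, 2.19, 1.62 and 4.73, against -2.96, 2.52, 1.77 and 4.76 without weighting. Under that weighting 0 of 46 G2 and M phase genes and 10 of 27 S phase genes were lower, as cell cycle UMIs set the weights, and MKI67 had a log2 fold of 0.037.

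**Figure D4:**
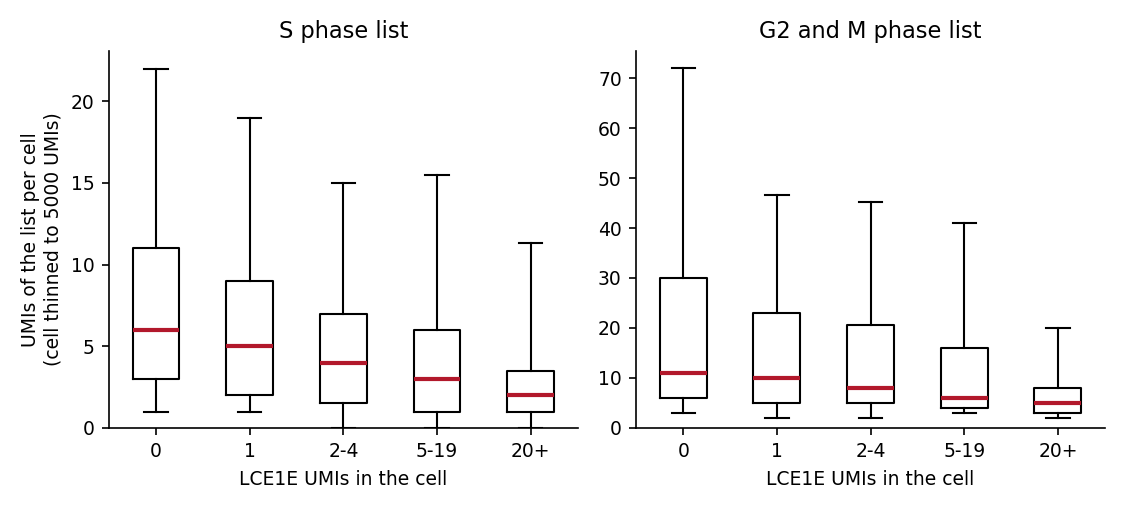
UMIs of the S phase list (left) and of the G2 and M phase list (right) per cell after thinning to 5000 UMIs (vertical axes), in persister cells grouped by LCE1E UMIs (horizontal axes); red lines are medians, boxes quartiles and whiskers the 5th and 95th percentiles. G2 and M phase medians are 11 and 10 at 0 and 1 UMI, and 8, 6 and 5 in the LCE1E classes.

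CDKN1A, which encodes the CDK inhibitor p21, was at 229 CPM in LCE1E cells, 94.7 CPM in the 0-UMI cells and 40.2 CPM in parental cells, and at 198, 222 and 289 CPM over the 3 LCE1E classes. Of 12 measured inhibitors of the cycle and genes of quiescence, CDKN1A, GAS6 and YPEL3 were higher and 0 lower, against 4.38% higher and 10.6% lower among all genes. Of 19 p53 targets, CDKN1A and ZMAT3 were higher and PLK2 lower (median log2 fold 0.23). ZMAT3, an RNA-binding p53 target, was at 21.7 and 9.81 CPM, and MDM2, the p53 inhibitor, at 95.2 and 64.4 CPM, which is under 1.5-fold.

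Genes induced by interferon gamma summed to 10429 CPM in LCE1E cells and 10074 CPM in the 0-UMI cells, against 1156 CPM in parental cells, so both persister groups stood far above the parental library. Of 31 measured genes of the type I interferon response, 9 were higher and 0 lower (median 0.37, against 4.38% higher among all genes), and 5 were past 1.5-fold with equal cell cycle UMIs. IFI44L, an antiviral interferon-induced gene, was at 36.1 and 15.9 CPM, and OASL, an antiviral relative of the oligoadenylate synthetases, at 29.2 and 14.4 CPM. RSAD2, which encodes viperin, was under the limit of 20 CPM, at 14.2 and 4.10 CPM. Only 48 LCE1E cells had RSAD2 UMIs, and 10 of them held 57.7% of these. Between the persister groups, 1 of 22 measured interferon gamma genes was higher and 1 lower. IRF1, a transcription factor induced by interferon gamma, was at 911 and 951 CPM, and CXCL10, a chemokine that draws T cells, at 65.4 and 72.9 CPM. A T cell receptor sees antigen on MHC class I molecules, and of 19 class I presentation genes 0 passed 1.5-fold in either direction. B2M, the class I light chain, was at 7199 CPM in LCE1E cells, 6921 CPM in the 0-UMI cells and 676 CPM in parental cells.

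MHC class II genes summed to 5454 CPM in LCE1E cells and 5642 CPM in the 0-UMI cells, and thinned cells had medians of 27 and 28 UMIs of the list. Of 13 measured, 4 were lower, against 10.6% of all genes (HLA-DQB1, HLA-DMA, HLA-DOA and CIITA) and 1, CTSS, was higher (median log2 fold -0.47). Counts depended on the setting, with 7 lower at equal cell cycle UMIs and 2 lower under TMM scaling. CIITA, the class II transactivator, was at 51.8 and 101 CPM. HLA genes are close copies, so their counts are uncertain. CTSS, which encodes the lysosomal protease cathepsin S, was at 386 and 240 CPM, and the related CTSL at 383 and 177 CPM. Of 16 lysosome and autophagy genes, 3 were higher (CTSS, CTSL and SQSTM1) and 0 lower, against 4.38% higher among all genes, with a median of 0.38. With equal cell cycle UMIs 2 were higher, and SQSTM1 had a log2 fold of 0.53.

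Secreted inflammatory factors divided. AREG, a ligand of the EGF receptor, was higher (429 against 257 CPM), together with INHBA, IGFBP3 and TGFB1, while IL24, IGFBP7, CXCL8, CXCL1, CXCL3, HBEGF and VEGFA were lower among 16 measured, against 4.38% higher and 10.6% lower among all genes. CXCL1, a chemokine that draws neutrophils, was at 14.1 and 61.6 CPM. IL6, the inflammatory cytokine, was at 0.733 CPM (5 UMIs) and 7.55 CPM. Of 18 NF-kB and TNF pathway genes, 1 was higher and 5 were lower, against 4.38% higher and 10.6% lower among all genes. Their median log2 fold was 0.02, against -0.15 over all genes.

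Of 28 measured genes of the integrated stress response and the unfolded protein response, 0 were higher and 4 lower (ATF3, STC2, NUPR1 and SLC7A5), and the median was -0.20. The count of lower genes is near the 10.6% of all genes. DDIT3, which encodes the stress factor CHOP, was at 419 CPM in both groups. NUPR1, a small stress-induced chromatin protein, was at 7.04 and 53.6 CPM. Of 13 heat shock genes, HSPD1 and HSP90AA1 were lower and 0 higher, also near that share, and with equal cell cycle UMIs both came under 1.5-fold (log2 folds -0.52 and -0.53). Of 16 glycolysis and hypoxia genes, ENO1, SLC2A1 and VEGFA were lower and 0 higher, against 10.6% lower and 4.38% higher among all genes. Under the limit of 20 CPM, NDRG1 was at 16.1 and 6.41 CPM, while HK2 went the other way, at 2.79 and 7.01 CPM. As whole lists, these were lower per cell in the LCE1E group. Thinned LCE1E and 0-UMI cells had medians of 22 and 27 UMIs of the stress response list. The medians were 18 and 23 UMIs for heat shock, and 31 and 40 UMIs for glycolysis and hypoxia.

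Lists of melanoma cell states held few measured genes, and the called genes went in both directions. Of 9 measured melanocyte genes, CAPG and BCL2A1 were higher and CDK2 lower, against 4.38% higher and 10.6% lower among all genes. Of their log2 folds 7 of 9 were above 0, with a median of 0.16. Summed levels of the list were 1990.1 CPM in LCE1E cells and 1693 CPM in the 0-UMI cells. CDK2 came under 1.5-fold with equal cell cycle UMIs (log2 fold -0.52). MITF, the melanocyte master factor, was under the limit of 20 CPM, at 2.64 CPM (18 UMIs) and 7.41 CPM, as was NGFR, the nerve growth factor receptor of neural crest-like melanoma cells, at 2.49 and 9.39 CPM. Of 7 neural crest and dedifferentiation genes, SOX4 was higher and NES, FOSL1, TFAP2C and AXL were lower, against 4.38% higher and 10.6% lower among all genes. Of 12 measured genes from a list on drug-tolerant persister states, KDM6B was higher and EZH2, IGF1R, ALDH1A3 and AXL were lower. Among all genes 4.38% were higher and 10.6% lower. BCL2A1, an anti-apoptotic BCL2 relative, was at 199 and 122 CPM, and BCL2L1, another anti-apoptotic member, at 21.7 and 36.4 CPM. They were the 1 higher and the 1 lower gene of 10 anti-apoptotic genes, against 4.38% and 10.6% of all genes, and of 13 pro-apoptotic genes 0 were higher and 1 lower. Of 9 checkpoint and T cell ligand genes, 1 was higher and 0 were lower, against 4.38% and 10.6% of all genes. The higher gene was ICAM1, an adhesion ligand of T cells (179 against 115 CPM).

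**Figure D5:**
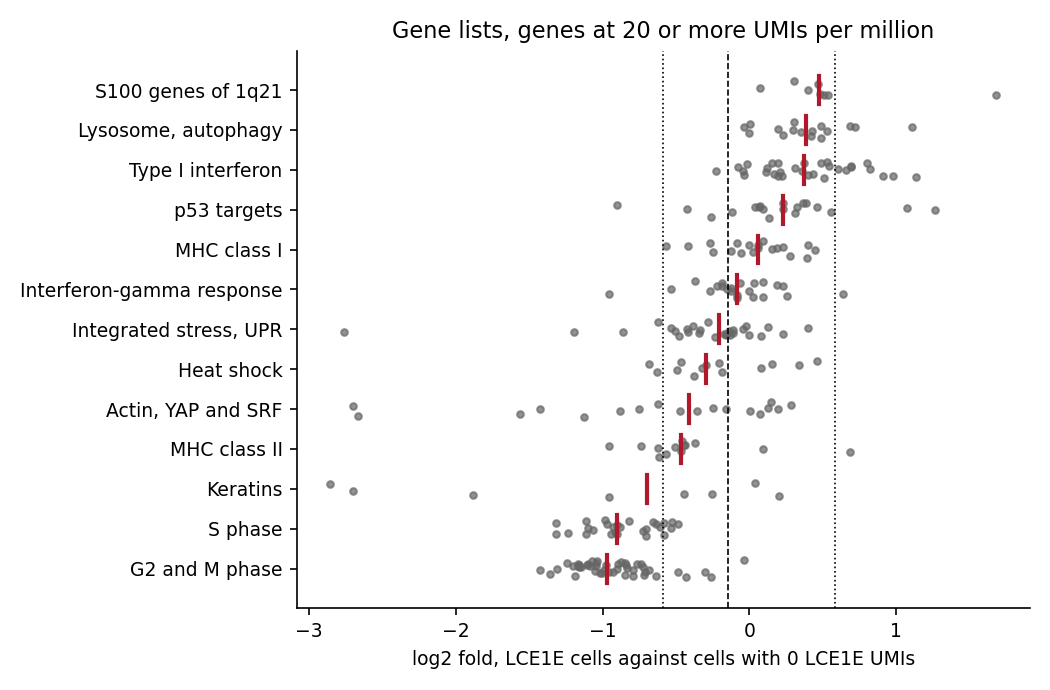
Log2 fold between LCE1E cells and 0-UMI cells (horizontal axis) of the measured genes of 13 lists (rows; grey points are genes, red bars list medians, the dashed line the median of all genes and the dotted lines 1.5-fold). The G2 and M phase and S phase lists lie almost wholly below 0, and the 8 S100 genes at 20 CPM or more lie above 0.

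The LCE1E cells overlapped other expression states of the persister library to different extents. At 2 or more UMIs, CXCL10 was found in 10.6% of LCE1E cells (interval 7.997 to 13.7%) and 13.1% of the 0-UMI cells (12.2 to 14.02%), so these intervals overlapped. NUPR1 was found in 1.87% against 11.2%, NGFR in 0.208% (1 cell) against 2.09% and IL6 in 0.416% (2 cells) against 1.91%. AREG went the other way, with 39.7% (35.3 to 44.2%) against 29.4% (28.1 to 30.6%). MKI67 was found in 20.4% of LCE1E cells and 33.8% of the 0-UMI cells.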

How the data were processed

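Single-cell RNA was captured with a 10x Chromium kit that reads the 3' end of transcripts, per the labels' protocols. The authors deposited raw UMI counts for each gene in each barcode, made with Cell Ranger 3.1.0 on GRCh38, per the submitters' processing notes. The annotation release and read length are not given in the sources used here. Doublets were neither called nor removed.

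Counts were summed over the cells of each group and divided by the group's total (CPM). Genes reaching 20 CPM in 1 group or more were compared on the log2(CPM + 1) scale, and past 1.5-fold they were called higher or lower. Thinning drew 5000 UMIs per cell at random. Python 3.11.15, numpy 2.4.6 and scipy 1.17.1 were used, with edgeR 4.0.16 for TMM factors as an alternative scaling. Positions came from GENCODE 29 for 33456 of 33538 gene IDs, and promoter windows from RefSeq (GRCh38.p14).

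Named genes were the 12 highest and the 12 lowest by log2 fold at 20 CPM or more (leaving out mitochondrial, ribosomal and clone-named genes), up to 3 per list with the largest fold at 5 CPM or more, all late cornified envelope genes with a UMI, the 10 genes ranked most like LCE1E, and a fixed set (CDKN1A, MDM2, TP63, KLF4, S100A6, CXCL10, IL6, NUPR1, DDIT3, MKI67, MITF, SOX10, NGFR, B2M, IRF1 and AREG). Other genes named in the text are members of the lists past 1.5-fold, LCE1E's neighbours, or genes chosen after their values were seen. The rule for the cells, and all 40 lists, were chosen with earlier results of these data known. The steps were tested on simulated sums of these 2 groups: of 50 genes made to differ 2-fold among 5526, 50 were called. These sums were drawn with counting error only. The result therefore checks the calculation and does not bear on variation between cells or libraries.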

Additional observations from a re-analysis of the deposited data

How the results depend on the processing

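The share of LCE1E cells was 6.61% with 3 or more UMIs as the limit and 5.63% after thinning, and between 7.62% and 8.50% under the other alternatives. Counts of higher and lower genes were 83 and 148 at 2-fold, 120 and 298 at 50 CPM or more, and 544 and 1044 at 5 CPM or more. With equal cell cycle UMIs, 321 genes were lower, 302 of them shared with the 588. Higher genes made up 29.2% of called genes, 38.0% at equal cell cycle UMIs and 35.8% under TMM scaling, which moved the median log2 fold by 0.04. Of 105 named genes past 1.5-fold, 89 stayed past it in each of 12 settings and 16 did not in at least 1. MKI67 changed sign at equal cell cycle UMIs (0.037), where NUF2 (-0.54), CENPF (-0.34), CCNB2 (-0.52), HSPD1 (-0.52), CDK2 (-0.52), HSP90AA1 (-0.53) and SQSTM1 (0.53) also came under 1.5-fold, and ICAM1 did so at 10% mitochondrial UMIs or fewer (0.52) and at 10000 UMIs or more (0.57). Leaving out cells over 30000 UMIs gave 254 higher and 618 lower genes, and leaving out barcodes found in both libraries 242 and 594. Both were chosen after seeing the data. No paired analysis was possible because each group has 1 library. With 6816859 UMIs in the LCE1E cells, 3 UMIs are worth 0.440 CPM, so differences of genes at or under that level were not detectable, and genes near 5 CPM rest on few UMIs, often from few cells.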

Other observations

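Genes outside the naming rule also differed between LCE1E cells and the 0-UMI cells, and those given here were chosen after their values were seen. FERMT1, a focal adhesion protein of epithelial cells, was at 2566 CPM in LCE1E cells, 894 CPM in the 0-UMI cells and 64.9 CPM in parental cells. GAP43, a growth cone protein, was at 52.96 against 15.1 CPM, NEFL, the light neurofilament chain, at 71.1 against 30.9 CPM, GNG4, a G protein gamma subunit, at 269 against 114 CPM, and MLLT11 at 70.9 against 29.5 CPM. HAS2, which makes hyaluronan, was at 47.5 and 11.8 CPM, and at 29.3, 42.0 and 85.8 CPM over the 3 classes of LCE1E UMIs. GAST, the gastrin gene, was at 60.1 and 13.8 CPM, and LYPD3, a surface protein of differentiating keratinocytes, at 94.0 and 36.7 CPM.

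Genes that were lower and outside the rule included IL24, a cytokine of the interleukin 10 family, at 186 CPM in LCE1E cells, 568 CPM in the 0-UMI cells and 11.3 CPM in parental cells. SERPINE2, a secreted inhibitor of serine proteases, was at 555, 1223 and 1769 CPM, and TPM1, a tropomyosin of actin filaments, at 61.6, 135 and 755 CPM.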
